A study of Mus musculus with 6 samples.

Results

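Imprinted genes are a class of 37 genes chosen here by name, among them Ddc, Cdkn1c, Ascl2, Phlda2, Peg3, Meg3, Ndn, Sgce and Plagl1. Each was taken at the probe set (a group of short array probes read as 1 value) that carries its symbol alone in the platform annotation, and where several did, at the one of highest mean over the 6 arrays. By this rule 34 of the 37 were measured, among 18193 genes in all, and their 90 probe sets are part of 45037. H19 is named only on a probe set that carries several symbols, and Rtl1 and Dio3 are named on none, so no value is given for these 3. No measured value was used in choosing the members, but the list was drawn up with earlier results of these arrays known.

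The cells were E14TG2a mouse embryonic stem (ES) cells, a line kept on gelatin that stays undifferentiated with leukaemia inhibitory factor (LIF) and begins to differentiate without it. The 3 differentiating samples were cells kept 3 days in medium lacking LIF, from which FACS took those positive for 5T4, a surface protein encoded by Tpbg, and the 3 undifferentiated samples were the 5T4-negative cells of cultures that kept LIF (1000 units/ml). LIF withdrawal and the 5T4 sort therefore cannot be told apart. All 6 samples came from this one line, which is known to lack Hprt. Nothing in the labels or methods says that the numbered replicates were separate cultures, so the p-values measure only the spread between these arrays, which may be technical. Values are log2 RMA values of Affymetrix arrays, without detection calls, so that low levels and background look alike, and in bulk samples fewer cells of a type and less RNA per cell cannot be told apart.

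Imprinted genes are expressed mainly or only from the copy inherited from the mother or from the copy inherited from the father. The choice is written in the egg and sperm as DNA methylation at imprinting control regions, and one such region can govern a cluster of neighbouring genes of both parental kinds, often with a long non-coding RNA among them. Many of these genes act on fetal and placental growth, and ES cells in culture are known for unstable imprints. The arrays measured the RNA of both copies together, and nothing here tells which copy it came from. Several genes of the list, such as Ddc, Cd81, Tssc4, Asb4 and Ppp1r9a, are known to be imprinted only in some tissues.

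At day 3, 1 of the 34 measured imprinted genes was lower and 0 were higher in differentiating than in undifferentiated cells, at an adjusted p under 0.1 in limma. Ddc was the gene that passed, and 33 did not pass, although 10 had an unadjusted p under 0.05. Of all genes, 0.797% were higher and 1.45% were lower by the same rule. The log2 fold change (differentiating minus undifferentiated) was above 0 in 25 members, of which Asb4 alone turned after median centring and after a second quantile normalization, and below 0 in 9, with a median of 0.19 against 0.02 over all genes. Without undifferentiated replicate 1 the median of the members was 0.09, and without undifferentiated replicate 2 it was 0.37. In 8 members (23.5%) every differentiating array was above every undifferentiated array, against 10.7% of all genes, and in 4 members (11.8%) every one was below, against 12.8% of all genes. The share of members that lay below thus stood near the background, and that of members above stood over it, with no test of the list made. Among the 26 members above the median level of all probe sets, 19.2% lay above, against 11.1% of all genes over that level. Below lay 15.4% of them, against 17.6%. Of the 8 members above, Zim1 and Nap1l5 were among the dimmest 25% of probe sets, and Snrpn, Ndn and Magel2 share a domain.

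**Figure D1:**
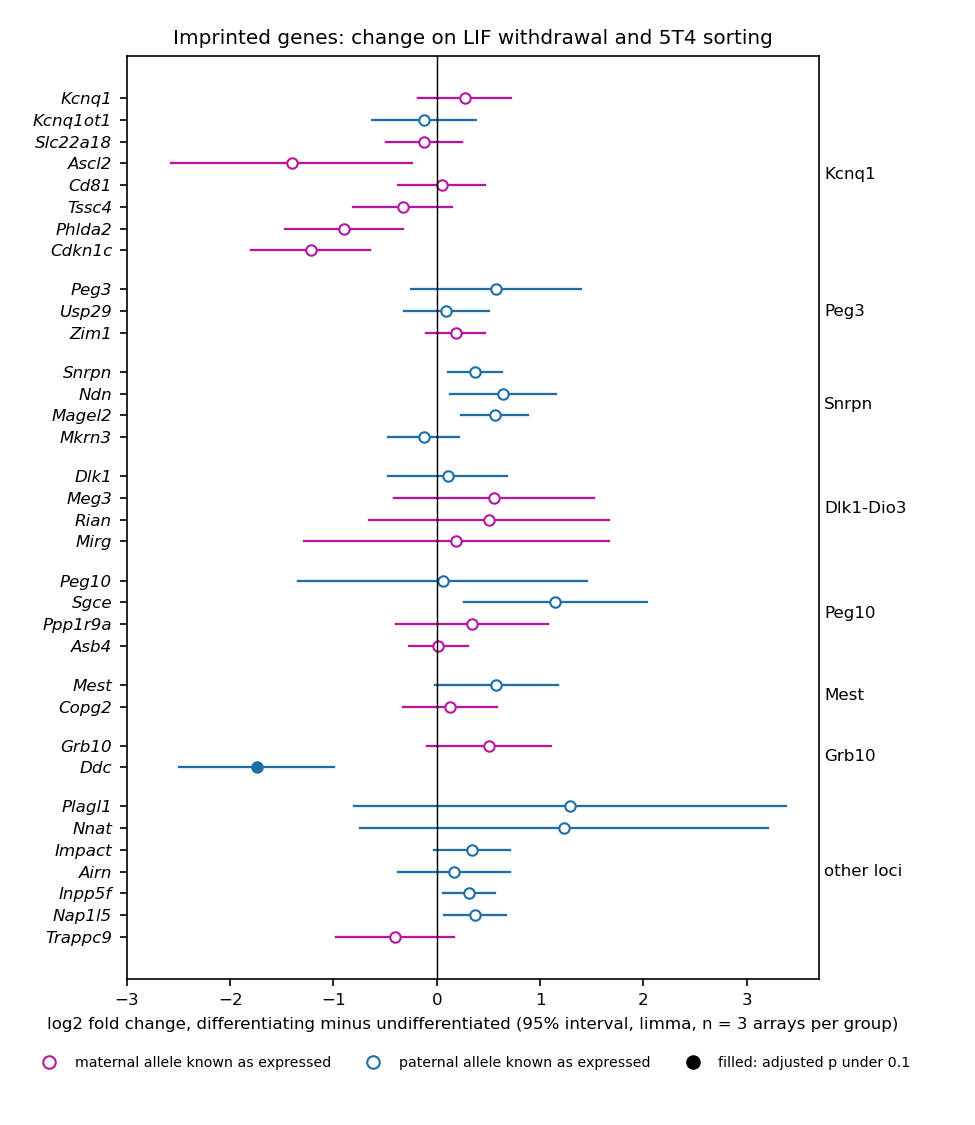
The log2 fold change of 34 imprinted genes (points) with its 95% interval (lines, limma, n = 3 arrays per group), ordered by imprinted domain, with the parental copy known to be expressed in colour and the gene that passed filled. Ddc lies at -1.74, Cdkn1c, Ascl2 and Phlda2 of the Kcnq1 domain lie below 0 with their whole interval, and the intervals of Plagl1 and Nnat run from below 0 to above 3.

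Ddc encodes aromatic L-amino acid decarboxylase, which makes dopamine and serotonin, and lies beside Grb10. Its RMA values were 8.10, 6.94 and 6.93 in differentiating replicates 1, 2 and 3 and 9.19, 9.04 and 8.97 in undifferentiated replicates 1, 2 and 3. The undifferentiated arrays lay close together, and differentiating replicate 1 stood between them and the other 2 differentiating arrays. Ddc fell by 1.74 on the log2 scale (standard error 0.32, 95% interval -2.49 to -0.995, 3.35-fold lower, adjusted p = 0.0887 from limma). The adjusted p was 0.353 without differentiating replicate 2, 0.304 without differentiating replicate 3, 0.118 without undifferentiated replicate 1 and 0.311 without undifferentiated replicate 3, with the log2 fold change between -1.79 and -1.55 in each of these 4 fits. A second Ddc probe set, among the dimmest 25% of all probe sets by mean level, stood at 0.07 (adjusted p = 0.887), and the mean of both probe sets gave -0.84 (adjusted p = 0.114).

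The stretches before the 2 RefSeq starts of Ddc are shown because Ddc carries the one call of the list, and because promoters of imprinted genes are known for being rich in CG, the dinucleotide that is methylated. They lie on the minus strand of GRCm38.p6 at chr11:11890409-11890658 and chr11:11898145-11898394 and are written 5′ to 3′ with every CG in capitals, 4 in the first and 1 in the second.
Ddc, first start: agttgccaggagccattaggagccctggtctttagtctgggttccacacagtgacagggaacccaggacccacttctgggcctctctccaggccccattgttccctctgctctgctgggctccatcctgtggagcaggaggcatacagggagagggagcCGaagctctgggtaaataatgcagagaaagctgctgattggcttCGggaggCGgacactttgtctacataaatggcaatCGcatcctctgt
Ddc, second start: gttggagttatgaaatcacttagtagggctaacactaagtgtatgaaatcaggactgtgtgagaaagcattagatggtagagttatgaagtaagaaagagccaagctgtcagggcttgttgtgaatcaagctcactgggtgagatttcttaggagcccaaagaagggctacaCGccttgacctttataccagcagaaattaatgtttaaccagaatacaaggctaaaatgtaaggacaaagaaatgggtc
Counted over 300-base windows (250 bases before the start and 50 after), the starts of Ddc held 5 and 2 CG, under the median of 11 over the 39 promoters of the list and that of 7 over all promoters.

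Grb10 encodes an adaptor protein that restrains insulin and growth factor signalling. It read 11.94, 12.11 and 12.51 in differentiating and 11.23, 12.11 and 11.71 in undifferentiated replicates 1, 2 and 3, so that the groups overlapped. The log2 fold change of Grb10 was 0.50 (95% interval -0.10 to 1.11, adjusted p = 0.452), the opposite sign to its neighbour Ddc, and its 3 probe sets lay between 0.40 and 0.53. Without undifferentiated replicate 1 it was 0.28. Cobl, an actin nucleator gene, is the next protein-coding gene beyond Grb10 in the RefSeq order (Ddc, Grb10, Cobl, with non-coding genes between) and belongs to a list of other imprinted genes. Cobl read 8.65, 7.44 and 6.83 in differentiating and 10.57, 9.74 and 10.57 in undifferentiated cells and fell by 2.66 (adjusted p = 0.0844 from limma). It did not pass without differentiating replicate 2 or 3 or without undifferentiated replicate 1 or 3, with log2 fold changes of -2.56 to -2.26 and adjusted p up to 0.353. The genes on either side of Grb10 were thus both lower, each with differentiating replicate 1 nearest to the undifferentiated arrays. That array was also nearest for the ES cell markers Klf4, Zfp42, Esrrb and Sox2, but not for Pou5f1 and Nanog. Klf4, for example, read 8.17, 6.24 and 5.50 in differentiating replicates 1, 2 and 3. The order was therefore not particular to the neighbours of Grb10.

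The Kcnq1 domain holds a group of genes expressed from the maternal copy, several of them best known in placenta, and the paternally expressed non-coding RNA Kcnq1ot1, which silences the others on its own copy. None of its 8 measured genes passed, the median log2 fold change was -0.23, and 6 of the 8 were negative. In 3 of them (37.5%) every differentiating array lay below every undifferentiated array, against 12.8% of all genes and 17.6% of those above the median level of all probe sets.

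Cdkn1c encodes the cyclin-dependent kinase inhibitor p57. It read 7.25, 7.83 and 8.05 in differentiating and 8.59, 9.13 and 9.09 in undifferentiated cells, with means of 7.71 ± 0.41 (SD, n = 3) and 8.93 ± 0.30 (SD, n = 3). The difference, -1.22 (standard error 0.24, 95% interval -1.80 to -0.64), was larger than the range of either group, but with an adjusted p of 0.101 from limma Cdkn1c stood just outside the threshold. It passed without undifferentiated replicate 1 (-1.39, adjusted p = 0.0836). It also passed with both replicate 1 arrays left out (-1.17, adjusted p = 0.0167), a fit chosen after the values were seen. In the other 5 fits that left out a single array it did not pass, with log2 fold changes of -1.39 to -0.99 and adjusted p of 0.118 to 0.366.

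Ascl2 encodes a transcription factor that trophoblast progenitors need. Its values were 6.48, 5.61 and 5.25 in differentiating and 8.22, 6.78 and 6.55 in undifferentiated cells. Replicate 1 was the highest of its group in both, and undifferentiated replicate 1 stood 1.55 above the mean of the other 2. Between the groups it differed by -1.40 (standard error 0.49, 95% interval -2.57 to -0.23, adjusted p = 0.278). All 3 Ascl2 probe sets were separated in the same direction, with log2 fold changes of -1.78 to -1.40. Without undifferentiated replicate 1 alone the value was -0.89 (adjusted p = 0.320). With both replicate 1 arrays left out, the fit chosen after the values were seen, it was -1.24 (adjusted p = 0.0270) and passed.

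Phlda2 encodes a small protein with a pleckstrin homology domain that limits placental growth. It read 9.62, 10.56 and 10.27 in differentiating and 11.20, 10.98 and 10.96 in undifferentiated cells, without overlap. The means differed by -0.90 (95% interval -1.46 to -0.33, adjusted p = 0.176). With both replicate 1 arrays left out, again the fit chosen after the values were seen, the difference was -0.55 (adjusted p = 0.0975). Here differentiating replicate 1 was the lowest array, whereas for Ascl2 it was the highest of its group, so the 3 separated genes of the domain did not share one order of arrays.

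The other 5 genes of the domain lay nearer to 0. Kcnq1ot1 read 7.75, 8.24 and 8.15 in differentiating and 7.80, 8.24 and 8.46 in undifferentiated cells (log2 fold change -0.12, 95% interval -0.62 to 0.38). Kcnq1, a potassium channel gene, stood at 0.27, the organic cation transporter gene Slc22a18 at -0.13, the tetraspanin gene Cd81 at 0.05 and Tssc4 at -0.33. Their adjusted p lay between 0.546 and 0.935. Tssc4 passed only with array weights and with both replicate 1 arrays left out (-0.49, adjusted p = 0.0742), the fit chosen after the values were seen.

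Trophoblast markers were looked at beside these placental genes. Of 9 measured markers 1 passed, Tfap2c, which was lower (log2 fold change -2.84, adjusted p = 0.0818). Tfap2c passed in 2 of the 6 fits that left out a single array, with an adjusted p from limma of up to 0.322. The log2 of the summed level of the 9 ran from 8.61 to 9.16 in differentiating and from 9.95 to 10.23 in undifferentiated arrays. Tfap2c carried most of that gap, and without it the sum of the other 8 ran from 8.45 to 8.62 in differentiating and from 8.36 to 9.16 in undifferentiated arrays, overlapping, with a median log2 fold change of -0.10 over the 9. The defining genes Cdx2 (log2 fold change -0.18), Elf5 (0.06) and Eomes (0.14) did not pass, and their values ran from 4.18 to 6.66 over the 6 arrays. The part of these markers in the values of the Kcnq1 domain was not tested.

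**Figure D2:**
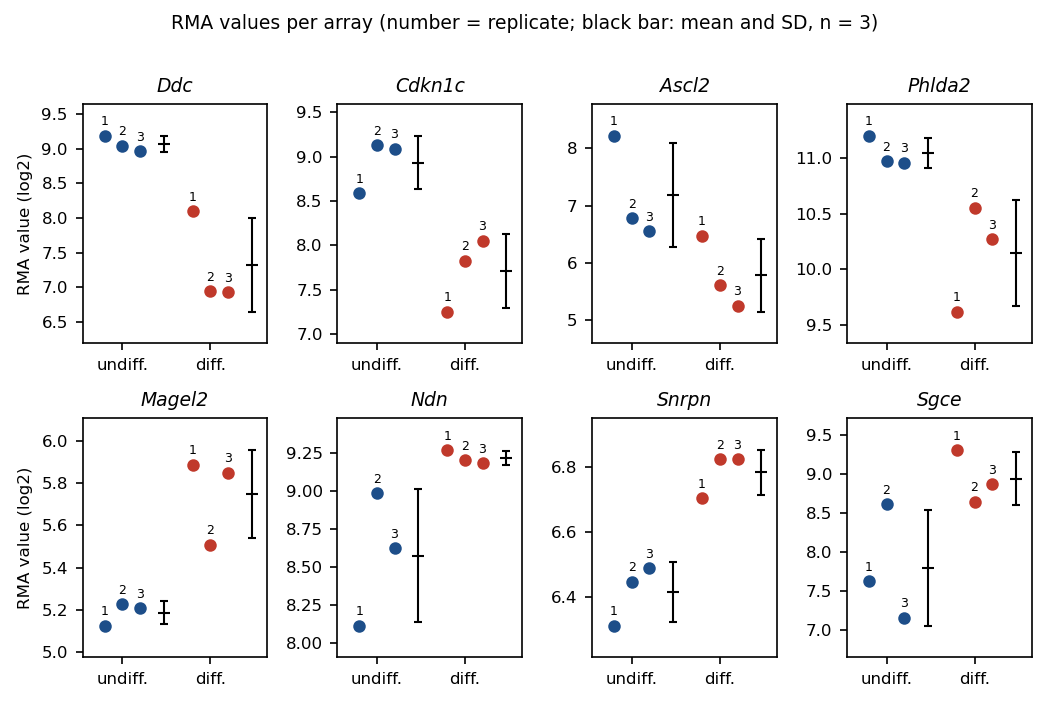
RMA values (log2) of 8 imprinted genes in each undifferentiated (blue) and differentiating (red) array, with replicate numbers and the mean and SD of 3 arrays as black bars (each panel has its own axis, which does not start at 0). For Ddc, Cdkn1c, Ascl2 and Phlda2 every differentiating array lies under every undifferentiated one, and for Magel2, Ndn, Snrpn and Sgce every differentiating array lies over them.

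The Snrpn domain, known as the Prader-Willi region in humans, holds paternally expressed genes that act mainly in neurons. Of its 4 measured genes none passed, and 3 (75%) had every differentiating array above every undifferentiated array, against 10.7% of all genes. Magel2, which encodes a partner of ubiquitin ligases, read 5.89, 5.51 and 5.85 in differentiating and 5.13, 5.23 and 5.21 in undifferentiated cells. The difference of the means was 0.56 on the log2 scale (standard error 0.14, 95% interval 0.24 to 0.89, adjusted p = 0.147), from a level near the middle of all probe sets.

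Ndn encodes necdin, a growth suppressor of postmitotic neurons. It read 9.27, 9.20 and 9.18 in differentiating and 8.11, 8.98 and 8.62 in undifferentiated cells. The differentiating arrays were almost equal, and undifferentiated replicate 1 was the lowest, without which the difference was 0.41. The log2 fold change was 0.64 (95% interval 0.13 to 1.16, adjusted p = 0.260), and all 8 Ndn probe sets were above 0, between 0.30 and 0.86, with 3 of them among the dimmest 25% by level.

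Snrpn encodes a splicing protein of neurons. At the 1 probe set that names it alone it read 6.71, 6.82 and 6.82 in differentiating and 6.31, 6.45 and 6.49 in undifferentiated cells, without overlap (log2 fold change 0.37, 95% interval 0.10 to 0.63, adjusted p = 0.219). A further 6 probe sets name Snrpn together with other symbols and were not used. Mkrn3, a ubiquitin ligase gene of the same domain, read 6.36, 6.79 and 6.63 against 6.61, 6.73 and 6.81 (-0.13, adjusted p = 0.760). Of the 7 measured neural markers 2 passed, Neurod1 and Tubb3, and both were lower. When each array was left out in turn, Neurod1 passed in 2 of 6 fits and Tubb3 in 1 of 6. Their adjusted p from limma rose there to 0.2995 and 0.366. Nes stood at 1.18 with every differentiating array above (adjusted p = 0.153), Map2 at 0.61 (adjusted p = 0.377) and Sox1 at 0.05. Pax6 stood at -1.13 (adjusted p = 0.384) and Ncam1 at -0.36. Of the 7 markers 4 were thus negative, with a median log2 fold change of -0.36. The log2 summed level of the 7 ran from 9.97 to 10.28 in differentiating and from 10.17 to 10.43 in undifferentiated arrays, overlapping, and its part in the Snrpn domain was not tested.

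The Dlk1-Dio3 domain was measured at 4 of its 6 listed genes. Meg3, Rian and Mirg are long non-coding RNAs of the maternal copy, the latter 2 hosts of small nucleolar RNAs and of microRNAs, and loss of their expression is a known aberration of mouse stem cell lines. Dlk1, from the paternal copy, encodes a membrane ligand related to those of Notch. None passed, and all 4 log2 fold changes were above 0.

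Meg3 read 10.88, 11.46 and 11.72 in differentiating and 9.92, 11.45 and 11.03 in undifferentiated cells. Rian read 8.88, 9.39 and 9.95 in differentiating and 7.80, 9.55 and 9.35 in undifferentiated cells. Mirg read 7.51, 8.34 and 8.56 in differentiating and 6.45, 8.69 and 8.70 in undifferentiated cells. In all 3 RNAs replicate 1 was the lowest array of both groups, and the groups overlapped. Replicate 1 was also lowest in both groups for Atrx, Arid4b, Zfp445 and Yy1, of the imprint maintenance genes given below. Atrx read 9.01, 10.22 and 10.68 in differentiating and 7.82, 10.75 and 10.25 in undifferentiated cells. For others of that list, such as Ehmt2, it was the highest in both groups. The order was therefore not particular to this domain. Undifferentiated replicate 1 lay below the mean of the other 2 of its group by a difference of -1.32 for Meg3, -1.65 for Rian and -2.24 for Mirg, and differentiating replicate 1 by -0.71, -0.78 and -0.94.

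The same array was lowest among the undifferentiated ones at 10 of 11 probe sets of Meg3, at 4 of 4 of Rian and at 2 of 2 of Mirg. Between the groups the log2 fold changes were 0.55 for Meg3 (95% interval -0.41 to 1.52, adjusted p = 0.618), 0.51 for Rian (-0.66 to 1.67, adjusted p = 0.714) and 0.19 for Mirg (-1.29 to 1.67, adjusted p = 0.925). These intervals leave room for differences of more than 1 in the upward direction, and that of Mirg also in the downward direction. Without undifferentiated replicate 1 the log2 fold changes were 0.11 for Meg3, -0.04 for Rian and -0.55 for Mirg. Dlk1 read 5.99, 6.13 and 6.13 in differentiating and 5.47, 6.46 and 6.00 in undifferentiated cells (log2 fold change 0.11, adjusted p = 0.891, and -0.15 without undifferentiated replicate 1), again with undifferentiated replicate 1 lowest and replicate 2 highest.

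**Figure D3:**
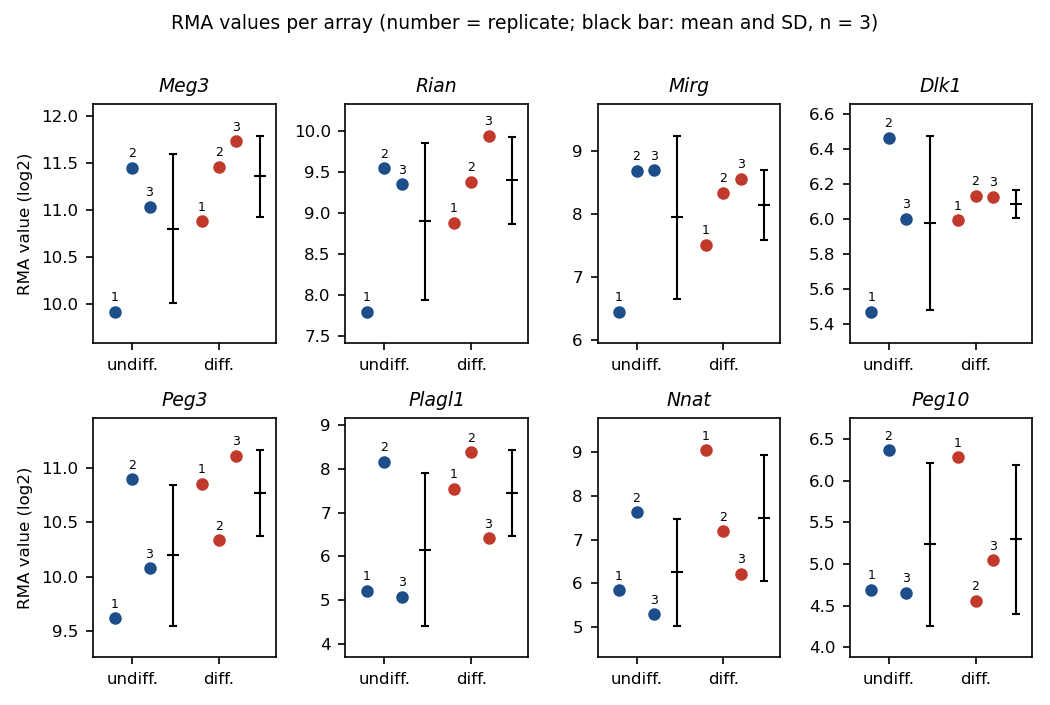
RMA values (log2) of 8 imprinted genes whose undifferentiated arrays (blue) lie far apart, with the differentiating arrays (red), replicate numbers, and the mean and SD of 3 arrays as black bars (each panel has its own axis, which does not start at 0). Undifferentiated replicate 1 is the lowest of its group for Meg3, Rian, Mirg, Dlk1 and Peg3, and replicate 2 stands apart above the others for Plagl1, Nnat and Peg10.

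The Peg10 domain gave 4 measured genes, of which none passed. Sgce, which encodes epsilon-sarcoglycan, and Peg10, a gene derived from a retrotransposon and needed for the placenta, are neighbours in the RefSeq order and both are expressed from the paternal copy. Sgce read 9.31, 8.64 and 8.87 in differentiating and 7.62, 8.61 and 7.15 in undifferentiated cells. Its group means differed by 1.15 on the log2 scale (standard error 0.37, 95% interval 0.27 to 2.03, adjusted p = 0.245). Undifferentiated replicate 2 reached almost the level of the differentiating arrays, and without it the log2 fold change was 1.56 and passed (adjusted p = 0.0533).

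Peg10 read 6.29, 4.56 and 5.04 in differentiating and 4.69, 6.37 and 4.65 in undifferentiated cells. The order of the arrays within each group was that of Sgce, with replicate 1 highest in differentiating and replicate 2 highest in undifferentiated cells, but 1 array of each group stood high and the log2 fold change was 0.06 (95% interval -1.34 to 1.46, adjusted p = 0.979). It ran from -0.44 to 0.62 when single arrays were left out. Ppp1r9a, which encodes the actin-binding protein neurabin, read 7.79, 8.54 and 8.73 against 7.49, 8.30 and 8.25 (log2 fold change 0.34, adjusted p = 0.695), with replicate 1 lowest in both groups. Asb4, a gene of a ubiquitin ligase adaptor, lay among the dimmest 25% of probe sets at 3.63 to 3.93 on every array (0.02, adjusted p = 0.971).

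Mest, which encodes a hydrolase of mesoderm and is expressed from the paternal copy, read 10.91, 11.13 and 11.51 in differentiating and 10.29, 11.09 and 10.43 in undifferentiated cells. The difference between its group means was 0.58 (95% interval -0.01 to 1.17, adjusted p = 0.376), with undifferentiated replicate 2 inside the differentiating range. Copg2, the next gene in the RefSeq order, encodes a coatomer subunit and read 8.83, 9.11 and 9.07 against 9.17, 8.50 and 8.95 (0.13, adjusted p = 0.816). The 250 bases before one of the Mest starts are shown as an imprinted promoter dense in CG, to set beside those of Ddc. They lie on the plus strand of GRCm38.p6 at chr6:30737800-30738049 and hold 14 CG, in capitals.
Mest: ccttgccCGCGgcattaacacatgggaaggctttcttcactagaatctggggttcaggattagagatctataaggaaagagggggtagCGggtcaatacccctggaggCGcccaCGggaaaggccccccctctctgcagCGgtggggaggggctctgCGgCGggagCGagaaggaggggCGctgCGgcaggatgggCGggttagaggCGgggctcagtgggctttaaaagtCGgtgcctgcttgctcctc

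Peg3, a paternally expressed zinc finger gene, read 10.85, 10.33 and 11.11 in differentiating and 9.62, 10.89 and 10.08 in undifferentiated cells. The difference between the groups, 0.57 (95% interval -0.25 to 1.39, adjusted p = 0.542), was smaller than the range of the undifferentiated arrays, and was 0.28 without undifferentiated replicate 1 and 0.92 without undifferentiated replicate 2. In the same domain Usp29, a gene of a ubiquitin protease, stood at 0.09 (adjusted p = 0.860) and the zinc finger gene Zim1 at 0.18 (adjusted p = 0.569). Zim1 had its groups separated but read between 3.59 and 3.96, among the dimmest 25% of probe sets.

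Plagl1 and Nnat, both paternally expressed, had the widest ranges among the differentiating arrays (1.96 and 2.83). Plagl1 encodes a zinc finger protein that is known to act on other imprinted genes, and it read 7.54, 8.38 and 6.42 in differentiating and 5.22, 8.16 and 5.08 in undifferentiated cells. Undifferentiated replicate 2 stood 3.01 above the mean of the other 2, and between the groups the log2 fold change was 1.29, with a 95% interval of -0.80 to 3.38 (adjusted p = 0.589). Nnat encodes neuronatin, a small membrane protein of neurons, and read 9.05, 7.20 and 6.22 in differentiating and 5.84, 7.63 and 5.29 in undifferentiated cells (1.23, 95% interval -0.74 to 3.20, adjusted p = 0.584). Here undifferentiated replicate 2 stood 2.06 above the others and differentiating replicate 1 stood 2.34 above. Leaving out single arrays moved the log2 fold change of Nnat from 0.45 (without differentiating replicate 1) to 1.92 (without undifferentiated replicate 2) and that of Plagl1 from 0.76 (without undifferentiated replicate 3) to 2.30 (without undifferentiated replicate 2). For both genes the mean difference was smaller than the range within either group.

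Of the 5 remaining genes none had a group difference beyond 0.41 in size. Impact, which encodes an inhibitor of the kinase Gcn2, read 10.01, 10.02 and 10.02 in differentiating and 9.40, 9.93 and 9.70 in undifferentiated cells (0.34, adjusted p = 0.399, and 0.20 without undifferentiated replicate 1), without overlap. Inpp5f, a phosphoinositide phosphatase gene, read 9.03, 8.95 and 8.99 against 8.78, 8.64 and 8.61 (0.31, 95% interval 0.06 to 0.57, adjusted p = 0.270), also without overlap. Nap1l5, related to nucleosome assembly proteins, was separated as well but read only 3.37 to 3.96, also among the dimmest 25% (0.37, adjusted p = 0.265). Airn, the non-coding RNA that silences Igf2r on the paternal copy, stood at 0.17 (adjusted p = 0.802), and Trappc9, a gene of a vesicle tethering complex, at -0.41 (adjusted p = 0.531).

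By the parental copy known to be expressed, 18 of 20 paternal and 16 of 17 maternal genes were measured. The paternal genes had 15 positive and 3 negative log2 fold changes with a median of 0.35, and the maternal genes 10 and 6 with a median of 0.09. Every differentiating array lay above in 7 paternal genes (38.9%) and 1 maternal gene (6.25%), against 10.7% of all genes. Every one lay below in 1 paternal gene (5.56%) and 3 maternal genes (18.8%, all of the Kcnq1 domain), against 12.8% of all genes. These are counts over genes of which many are neighbours under one control region, so they do not stand for as many separate observations, and the difference between the kinds was not tested.

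The spread between arrays of one group was wider for the members than for all genes. The median SD of the members was 0.37 in undifferentiated and 0.28 in differentiating arrays, against 0.18 and 0.18 over all genes. A range of more than 1 on the log2 scale was found in 9 members (26.5%) among undifferentiated arrays, against 9.94% of all genes, and in 7 members (20.6%) among differentiating arrays, against 4.08%. Imprinted genes of the list were mostly well above the dimmest probe sets, and among the 26 above the median level of all probe sets the share with such a range in undifferentiated arrays was 30.8%, against 13.7% of all genes above it. Over the other imprinted genes the median SD was 0.16 in undifferentiated and 0.22 in differentiating arrays, with 14.7% and 11.8% of them over a range of 1. Some lists of other kinds were as wide in undifferentiated arrays. There 29.2% of the imprint maintenance genes, 28.6% of the neural markers and 41.7% of the fibroblast markers were over a range of 1. The share was lower for trophoblast markers (22.2%), ES cell markers (16.7%) and primitive and visceral endoderm markers (12.5%). No test was made of the list against other genes.

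**Figure D4:**
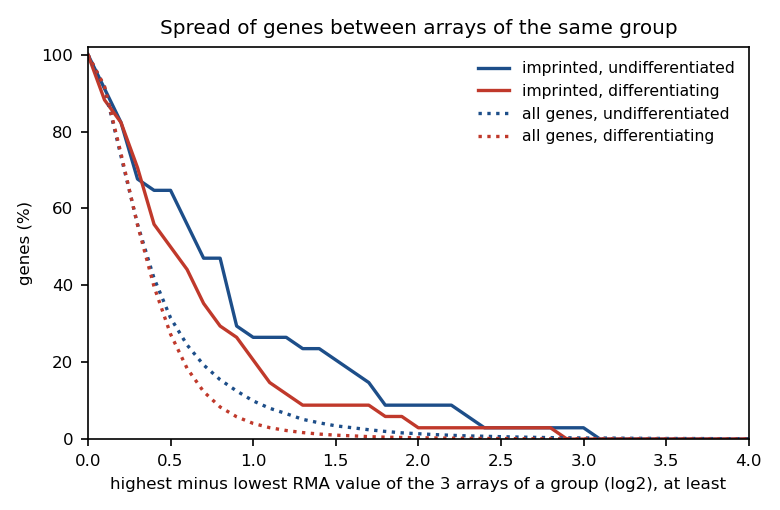
Share of genes (%) whose highest and lowest RMA value among the 3 arrays of a group differ by at least the amount on the horizontal axis (log2), for the 34 imprinted genes (solid lines) and all 18193 genes (dotted lines). At a range of 1 the solid lines stand above the dotted ones in both groups.

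Single arrays were often the lowest or the highest. Among undifferentiated arrays, replicate 1 was the lowest for 19 of the 34 genes and replicate 2 the highest for 17, whereas over all genes replicate 1 was the lowest for 31.6% and replicate 2 the highest for 26.2%. The median member lay at -0.35 from the mean of the other 2 arrays in undifferentiated replicate 1 and at 0.29 in replicate 2, against 0.05 and -0.04 for the median of all genes. Replicate 1 held the lowest undifferentiated value of 10 of the 18 paternal and of 9 of the 16 maternal genes, and replicate 2 the highest of 11 paternal and 6 maternal genes.

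Undifferentiated replicate 2 also read 6.76 for Tpbg, the gene of the sorted 5T4 protein, against 5.94 and 5.68 in the other 2, and all 3 differentiating arrays spanned 6.71 to 7.97 (log2 fold change 1.27, adjusted p = 0.220). The log2 summed level of 12 fibroblast markers was 10.21 in undifferentiated replicate 2 against 9.50 and 9.17, and 9.61 to 10.82 in differentiating arrays. None of the 12 passed, and 1 was among the dimmest 25%. Undifferentiated replicate 2 was the highest of its group for Col1a1, Col1a2, Col3a1, Col5a1, Postn and Twist2. For Thy1, Pdgfra, Pdgfrb, Lum, Prrx1 and Twist1 it was not. Col1a2, which lies near Sgce and Peg10 in the RefSeq order, read 8.44 in that array against 5.55 and 6.51. No sum was taken without Col1a2. Primitive and visceral endoderm markers (8 measured, none passing) summed to 8.81 in that array against 8.34 and 8.35, and 9.10 to 9.37 in differentiating arrays. Dab2, at 7.45 in undifferentiated replicate 2 against 5.63 and 5.94, led that sum, which without it was 8.12 to 8.29 in differentiating and 8.05 to 8.10 in undifferentiated arrays. All 6 ES cell markers had every differentiating array below every undifferentiated one, and 3 of them, Klf4, Pou5f1 and Sox2, were lower, though none of these passed without differentiating replicate 2 (adjusted p of 0.311 to 0.366). The part of these values in the levels of the imprinted genes was not tested.

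**Figure D5:**
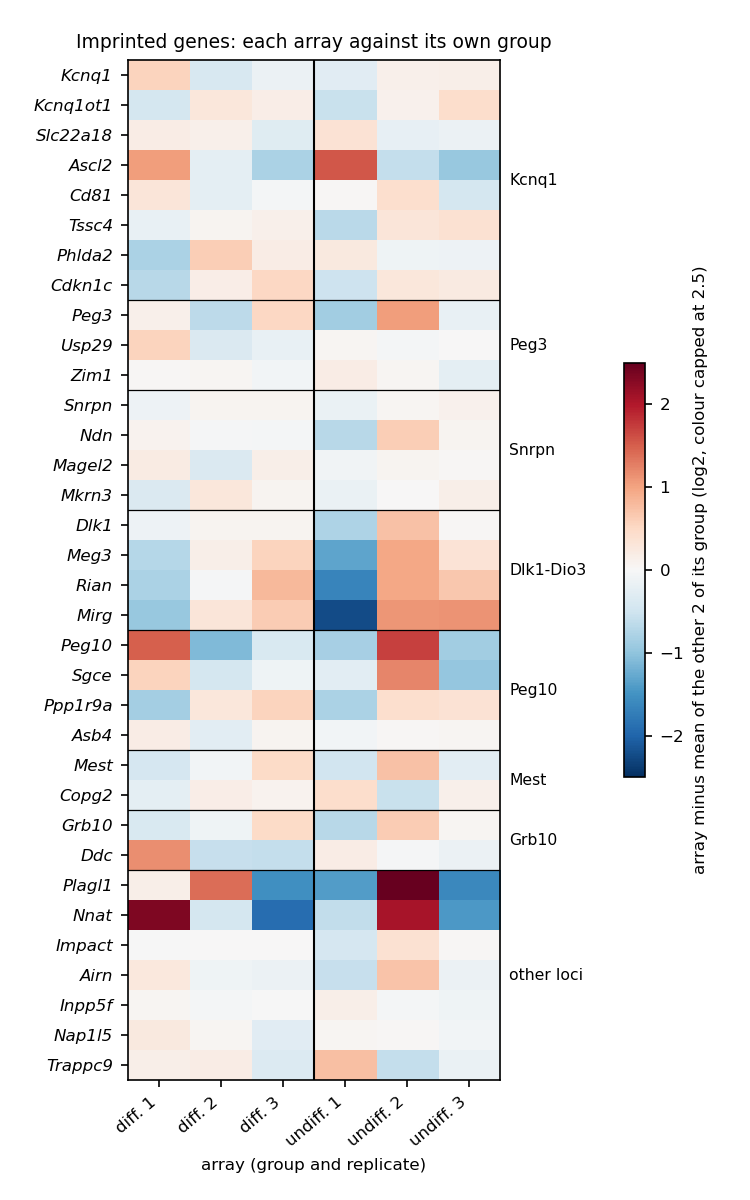
Difference of each array from the mean of the other 2 of its group (log2, colour scale capped at 2.5) for 34 imprinted genes (rows, grouped by domain) in 6 arrays (columns). The darkest blue cell is undifferentiated replicate 1 at Mirg (-2.24), and red cells for Plagl1 (3.01), Nnat (2.06) and Peg10 (1.70) stand in undifferentiated replicate 2.

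Of 42 other imprinted genes, 34 were measured, and 1 was higher and 1 lower, against 0.797% and 1.45% of all genes. Their median log2 fold change was 0.10. The lower one was Cobl, given above beside Ddc. The higher one was Atp10a, a phospholipid flippase gene from the neighbourhood of the Snrpn domain, which read 8.10, 8.59 and 8.50 in differentiating and 7.18, 7.39 and 7.20 in undifferentiated cells (1.14, 95% interval 0.76 to 1.52, adjusted p = 0.0538). The imprint maintenance genes, a list of genes of proteins that keep, read or alter imprints, lay mostly below 0. Of 24 measured among 25 listed, 2 were lower and 0 higher, against 1.45% and 0.797% of all genes. A negative log2 fold change was found in 18, and the median was -0.37. In 12 (50%) every differentiating array lay below every undifferentiated one. That stood against 12.8% of all genes and 17.6% of those above the median level of all probe sets. In 1 (4.17%) every one lay above, against 10.7% of all genes. Eed, a subunit of the Polycomb complex that methylates histone H3, fell by 1.16 (adjusted p = 0.0483), and Mbd3, of the NuRD remodelling complex, fell by 0.74 (adjusted p = 0.0736). Atp10a, Eed and Mbd3 did not pass when replicate 2 or 3 of the differentiating group or replicate 3 of the undifferentiated group was left out, where the adjusted p was 0.208 to 0.346, and kept log2 fold changes of 1.05 to 1.11, -1.19 to -1.09 and -0.77 to -0.66. One of the listed genes, Zfp42, is also an ES cell marker.

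Zfp57 encodes the zinc finger protein that recognises methylated TGCCGC at imprinting control regions and protects their methylation, and was picked out after its values were seen. It read 5.94, 6.07 and 6.12 in differentiating and 6.67, 7.11 and 7.54 in undifferentiated cells, without overlap, and with a difference of -1.07 (95% interval -1.59 to -0.55, adjusted p = 0.106) did not pass.

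The letters TGCCGC, searched on both strands, stood in a 300-base promoter window of 9 of the 29 imprinted genes with a promoter in the RefSeq table (31.0%), against 13.1% of 27025 genes. Counted by promoter it was 25.6% of 39 against 11.6% of 32851. The genes were Copg2, Grb10, Meg3, Mest, Nap1l5, Nnat, Plagl1, Snrpn and Zim1, and Ddc was not among them. The shares describe windows that differ in CG content, as given above, and a match is not a binding site. One match of each gene is shown to let the flanks be compared. The windows lie in GRCm38.p6 at chr6:30896895-30896920 (minus strand) for Copg2, chr11:12037381-12037406 (minus) for Grb10, chr12:109540796-109540821 (plus) for Meg3, chr6:30737973-30737998 (plus) for Mest, chr6:58907135-58907160 (minus) for Nap1l5, chr2:157560095-157560120 (plus) for Nnat, chr10:13090732-13090757 (plus) for Plagl1, chr7:60005186-60005211 (minus) for Snrpn and chr7:6696437-6696462 (minus) for Zim1. They are written 5′ to 3′ along the gene, with the match in capitals, as GCGGCA where it lies on the opposite strand.
Copg2: acgcccccgtGCGGCAgtgggcggag
Grb10: gtgcggggagGCGGCAggaagggaag
Meg3: caggggcactGCGGCAgatttttttt
Mest: gaggggcgctGCGGCAggatgggcgg
Nap1l5: gccattcactTGCCGCgagccgcgaa
Nnat: caccggggctGCGGCAttgcgcccag
Plagl1: ggcgtgttgcGCGGCAaagcccacgg
Snrpn: cccctgcattGCGGCAaaaatgtgcg
Zim1: aagtcatcccGCGGCAttccactccg
None of these 9 genes passed the test, and their log2 fold changes were all above 0, as were those of 25 of the 34 members.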

How the data were processed

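RNA of 6 E14TG2a samples was hybridised to Affymetrix mouse arrays. The authors processed the arrays with RMA (background correction, normalization between arrays, summary per probe set) and deposited log2 values. Versions of the authors' tools are not given in the sources used here. After 64 controls were left out of 45101 probe sets, 45037 were tested in R 4.3.3 by lmFit and eBayes of limma 3.58.1, with no block, and p-values were adjusted by Benjamini-Hochberg over all of them, with an adjusted p under 0.1 as the threshold. Genes were named through the platform annotation, in which 34945 probe sets carry 1 symbol, 932 several and 9160 none. The fit was tested on simulated data.

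The members, gene lists and comparisons were chosen with earlier results of these data known. Every measured member was named, and from the 2 other lists up to 4 genes of smallest adjusted p that passed. Domains and parental copies came from general knowledge. Of the 37 genes, 29 had promoters in the RefSeq table (GRCm38.p6), matched by symbol. The fit was repeated with each array left out in turn, with the replicate number as a block, without the dimmest 25% of probe sets, with array weights, with a trended robust variance, after median centring or a second quantile normalization, and with other thresholds or rules for several probe sets. A fit without both replicate 1 arrays was chosen after seeing the data. The number of arrays limits the precision.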

Additional observations from a re-analysis of the deposited data

How the results depend on the processing

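The median log2 fold change of the imprinted genes stayed above 0 under every alternative, from 0.09 to 0.37. The number of higher genes was 0 and became 4 with array weights (Snrpn, Ndn, Inpp5f and Nap1l5), and between 0 and 1 when each array was left out in turn (Sgce without undifferentiated replicate 2). The number of lower genes was 1 and became 2 with the dimmest 25% of probe sets left out, 2 with a trended robust variance, 5 with array weights, 5 with both replicate 1 arrays left out, 0 at an adjusted p under 0.05, and between 0 and 1 when each array was left out in turn. With the replicate number as a block (the replicate block) it was 3, Ddc, Cdkn1c and Ascl2. The numbers are not known to pair the samples, since arrays of the same number deviated from their group means with correlations of 0.205, -0.11 and 0.115 over probe sets, and not every array correlated best with its own number. A second quantile normalization and the mean of all probe sets of a gene each kept the count at 1 with Cdkn1c in the place of Ddc. Of the 34 genes, 23 kept their sign under all 15 settings that refit the values and 11 did not, none of which had a main log2 fold change beyond 0.51. The cause of these shifts was not tested. For the alternative fits and thresholds the share of all genes called was not counted. A changed number of members therefore cannot be read as particular to imprinted genes. With 3 arrays per group an exact permutation test cannot go below a p of 0.1.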
